A study of Mus musculus with 4 samples.

Results

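Conventional dendritic cells are the antigen-presenting cells that carry antigen from tissue to T cells. Here they were taken from the hearts of C57BL6J mice given either Rat IgG, the isotype control, or an agonist antibody that activates CD40, with transcripts and antibody tags read from the same cells by CITE-seq. Each group was 1 library from 4 pooled hearts, so there was no replicate and no difference was tested, and an effect of treatment and one of the preparation cannot be told apart. The labels give neither the antibody dose nor the time after treatment or the age of the mice; the sample titles name sorted CD45+ DAPI- cells, whereas the series text names DRAQ5+ DAPI- cells.

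The cells were selected on their own transcript counts: they held at least 3 UMIs of the genes Xcr1, Clec9a, Cd209a and Flt3 together, and few UMIs of macrophage (C1qa, C1qb and C1qc), mature dendritic cell, T cell, B cell and neutrophil genes. This rule found 84 of 6836 kept cells, 72 in the isotype library and 12 in the anti-CD40 library. Cells with a UMI of Xcr1 or Clec9a were called type 1 and the remaining cells with Cd209a type 2, which gave 30 type 1 and 42 type 2 cells in the isotype library and 10 type 1 and 2 type 2 cells in the anti-CD40 library. No member barcode occurred in both libraries. The members held 1258604 UMIs in the isotype library and 221092 in the anti-CD40 library, with medians of 17570 and 16534.5 UMIs per cell, so depth per cell was similar. A level below is in CPM, the UMIs of a gene in the named cells scaled to their summed UMIs, a ratio is the anti-CD40 level over the isotype level unless stated otherwise, and each interval is an exact 95% interval for counting error only. With 4 hearts pooled, a change in 1 mouse cannot be told apart from a like change in all 4.

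Type 1 conventional dendritic cells depend on the transcription factors IRF8 and BATF3, take up dead cells through CLEC9A and present their antigens on MHC class I to CD8 T cells, which XCR1, the receptor for the chemokine XCL1, helps them to meet. Type 2 cells depend more on IRF4, carry SIRPα (CD172a) and CD11b, and mainly present on MHC class II to CD4 T cells. CD40 on dendritic cells receives signals from CD40 ligand on helper T cells, after which mature cells make interleukin-12, a cytokine that drives T cells and NK cells to make interferon-γ. Interferon-γ signals through its receptor chains IFNGR1 and IFNGR2. Promoters of genes it induces often hold sites called GAS elements, or ISREs, which interferon regulatory factors bind.

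Promoters of 4 genes that interferon-γ is known to induce are shown because genes of this response led those that were higher in anti-CD40 type 1 cells. The 4 were chosen after their values were seen, for a match within the shown bases. Each line gives the 120 bases before the gene's start, in transcript orientation on build GRCm38.p6 from RefSeq, with matches to TTCNNNGAA (the GAS element) or 2 copies of GAAA set 2 bases apart (the ISRE) on either strand in capitals.
Gbp2, chr3:142620543-142620662, plus strand: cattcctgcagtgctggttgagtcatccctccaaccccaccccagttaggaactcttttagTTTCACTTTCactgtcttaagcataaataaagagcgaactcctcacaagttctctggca
Igtp, chr11:58199436-58199555, plus strand: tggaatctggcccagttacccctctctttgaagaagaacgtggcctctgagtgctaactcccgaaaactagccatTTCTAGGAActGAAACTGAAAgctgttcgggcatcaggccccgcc
Psmb8, chr17:34198075-34198194, plus strand: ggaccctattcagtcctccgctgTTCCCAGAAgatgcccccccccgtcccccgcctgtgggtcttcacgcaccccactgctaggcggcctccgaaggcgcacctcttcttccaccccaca
Serpina3g, chr12:104236027-104236146, plus strand: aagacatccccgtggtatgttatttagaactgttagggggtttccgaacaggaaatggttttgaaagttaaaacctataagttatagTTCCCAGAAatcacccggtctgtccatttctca

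The Gbp2 sequence holds an ISRE match that begins 59 bases before the start. Igtp holds a GAS match and an ISRE match 45 and 34 bases before the start, and Psmb8 and Serpina3g hold 1 GAS match each, 97 and 33 bases before it. In windows from 250 bases before to 50 bases after the start, a GAS match stood in 10 and an ISRE match in 14 of the 25 genes of the interferon-γ list that the RefSeq table holds, and both stood in 20.0% of their windows. Of all 27025 genes in that table, 9.55% held a GAS match and 3.99% an ISRE match. Of all 32851 windows of this length, 8.30% held a GAS match, 3.44% an ISRE match and 0.454% both. Among the genes named as highest in anti-CD40 members and held in the table, a GAS match stood in 1 of 11 and an ISRE match in 1 of 11. Among those named for type 1 cells the matches stood in 1 and 2 of 5. No match was found in the windows of Cxcl9, H2-K1, H2-Q7 and Txn1. A match is a description of letters and not a measured binding site.

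The label was checked against marker lists from which the genes of the rule were left out, and against antibody tags, which the rule did not use. In the isotype library the type 1 list, with Irf8, Naaa, Wdfy4, Tlr3 and Itgae among its genes, summed to 5838 CPM in type 1 cells, 748 CPM in type 2 cells and 981 CPM in macrophages. In the anti-CD40 library it summed to 5796 CPM in type 1 cells. The list of genes shared by conventional dendritic cells summed to 2646 and 2197 CPM in isotype type 1 and type 2 cells, against 366 CPM in macrophages. The type 2 list summed to 3942 CPM in type 2 cells, 1654 CPM in type 1 cells and 2156 CPM in macrophages, so it set type 2 cells less apart from macrophages. The monocyte list was at 2442 CPM in type 1 and 6700 CPM in type 2 cells, with 53910 CPM in 1 type 2 cell, and 4 isotype members held over 500 UMIs of the monocyte and macrophage gene Lyz2 and under 10 of H2-Aa. The macrophage list was at 537 CPM in isotype type 1 cells and 263 CPM in anti-CD40 type 1 cells, against 21712 and 5298 CPM in the macrophages of these libraries. These macrophages were selected with at least 10 C1q UMIs and members with at most 9, so the selection set part of this contrast.

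The type 1 cells were not uniform. Their summed type 1 list left a gap around 4000 CPM, a value chosen after the cells were seen: the highest cell below it was at 3687 CPM and the lowest cell above it at 4966 CPM. Above it were 22 of 30 isotype and 6 of 10 anti-CD40 cells, called type 1-high here, and below it were 8 and 4 cells, called type 1-low. The XCR1 antibody tag, read from other molecules than the transcripts, gave at least 20 UMIs in 20 of the 22 isotype and all 6 anti-CD40 type 1-high cells. It did so in 1 of 8 and 0 of 4 type 1-low cells, and in no type 2 cell of either library. Nearly all type 1-high cells therefore carried the label in both readouts, and all but 1 of the type 1-low cells lacked the tag. All 8 isotype type 1-low cells held 3 to 39 UMIs of the type 2 gene Cd209a, and 5 of them held under 10 UMIs of H2-Aa. The 4 anti-CD40 type 1-low cells held only 3 to 5 marker UMIs and 4 to 8 C1q UMIs, with 12 to 84 UMIs of the CD11b tag. Their CD172a tag gave 31 to 78 UMIs, against 0 to 14 in the 6 anti-CD40 type 1-high cells. The CD103 tag gave 133 UMIs in 1 of the 4 and 0 to 8 in the others. These 4 cells are type 1 by the rule, but their XCR1 and CD172a tags were unlike those of type 1-high cells. Comparisons between the libraries are therefore given mainly for type 1-high cells, with values over all type 1 cells of the rule beside them.

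The anti-CD40 members lay closer to the limits of the rule than the isotype members. Within all other limits, 7 isotype and 3 anti-CD40 cells held 2 marker UMIs and were left out, while 2 of 72 and 5 of 12 members held exactly 3. With 7 to 9 C1q UMIs, just inside that limit, were 2 isotype and 3 anti-CD40 members. The median member held 16.5 marker UMIs in the isotype library and 5.5 in the anti-CD40 library. Other cells may also have been in the groups: 4 isotype members held at least 5 UMIs of Siglech, a plasmacytoid dendritic cell gene, whose part in the results was not tested. Under 10 UMIs of H2-Aa, a class II gene, were held by 12 isotype members and 1 anti-CD40 member. Without these 13 cells, 60 and 11 members were left, 164 genes were at least 2-fold higher and 520 lower, and none of the 74 named gene and list values at least 2-fold apart turned its direction.

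**Figure D1:**
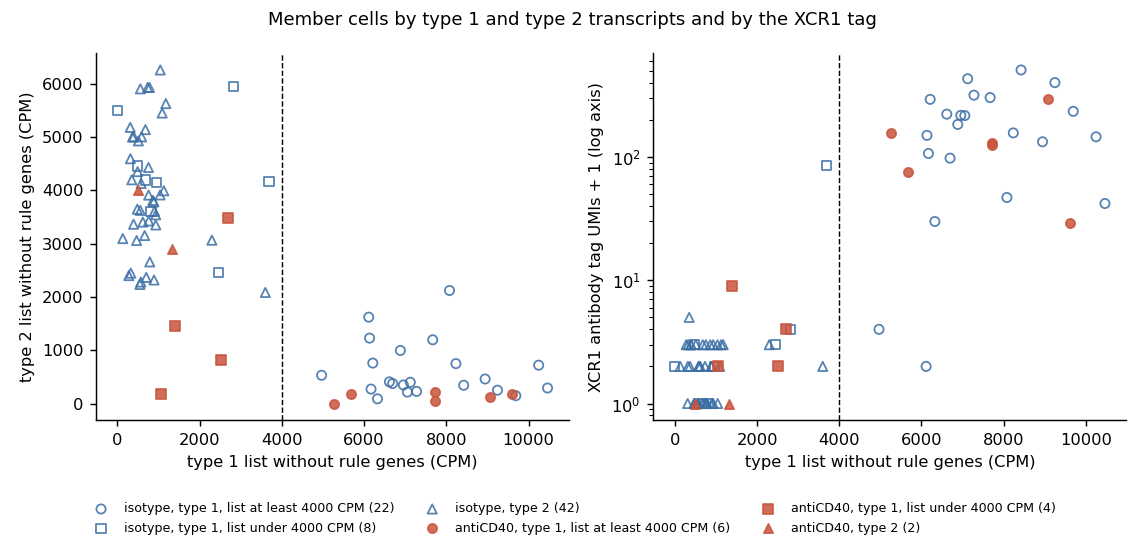
Each point is a member cell, plotted by its summed type 1 list (CPM, genes of the rule left out) against the summed type 2 list (CPM, left) and the XCR1 tag (UMIs + 1, log axis, right), with the dashed line at 4000 CPM. All 6 anti-CD40 and 20 of 22 isotype type 1-high cells hold 20 or more XCR1 tag UMIs, while the 4 anti-CD40 type 1-low cells hold 1 to 8.

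Conventional dendritic cells made up a smaller share of the anti-CD40 library. They were 72 of 2558 kept cells in the isotype library (2.81%, 2.21 to 3.53) and 12 of 4278 in the anti-CD40 library (0.28%, 0.15 to 0.49), a share 10.0 times lower. Type 1 cells were 1.17% (0.79 to 1.67) and 0.23% (0.11 to 0.43), and type 1-high cells 0.860% (0.540 to 1.30) and 0.140% (0.0515 to 0.305). Type 2 cells were 1.64% (1.19 to 2.21) of isotype and 0.05% (0.01 to 0.17) of anti-CD40 cells, a share 35.1 times lower. Type 1 cells thus made up 41.7% of isotype members (30.2 to 53.9) and 83.3% of anti-CD40 members (51.6 to 97.9). The intervals of the shares of kept cells did not overlap between the libraries, whereas those of the type 1 share of members did. A share depends on every other cell captured, and fewer dendritic cells cannot be told apart from more of the other cells: kept macrophages numbered 686 in the isotype and 2121 in the anti-CD40 library.

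The limit on C1q UMIs moved the shares. It alone left out 10 isotype and 38 anti-CD40 cells with at least 3 marker UMIs, with medians of 123 and 265 C1q UMIs. Without this limit the share was 3.21% in the isotype and 1.17% in the anti-CD40 library. There were then 32 type 1 and 50 type 2 cells in the isotype library and 47 and 3 in the anti-CD40 library. With 2558 and 4278 kept cells, the type 1 shares by the rule were thus close without the limit. Only 2 of the 10 and 6 of the 38 were type 1-high by their list. The other 32 anti-CD40 cells had a median type 1 list of 1913 CPM and a median of 286 C1q UMIs. Counted with no C1q limit, type 1-high cells were 24 isotype cells (0.938%, 0.602 to 1.39) and 12 anti-CD40 cells (0.281%, 0.145 to 0.489), so their share was lower in the anti-CD40 library with and without it.

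**Figure D2:**
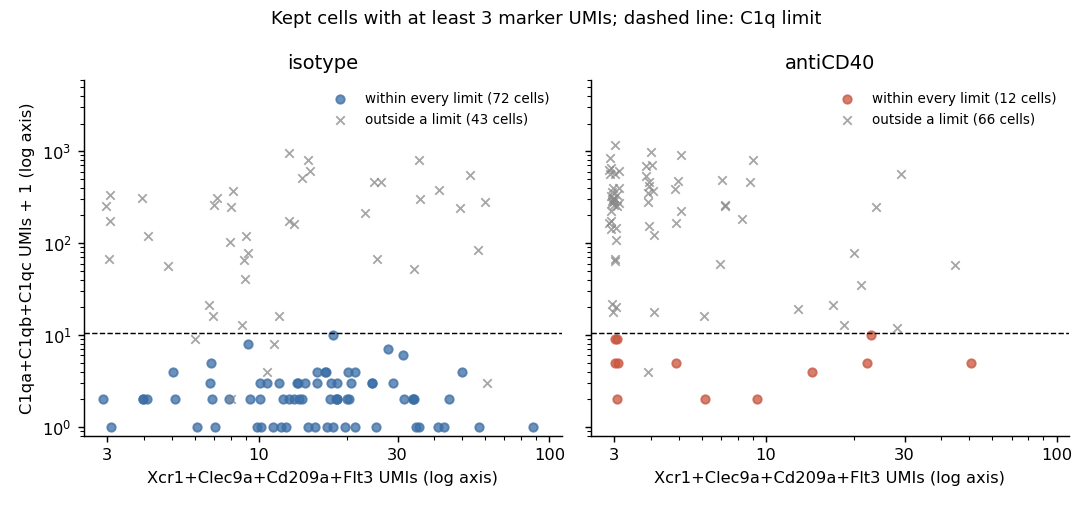
C1q UMIs + 1 (C1qa, C1qb and C1qc summed, log axis) against the UMIs of the 4 marker genes (log axis) for every kept cell with at least 3 marker UMIs, 115 in the isotype and 78 in the anti-CD40 library. Filled points are members, crosses exceed any of the limits, and the dashed line is the C1q limit. Most anti-CD40 cells lie above the line, many with 3 or 4 marker UMIs, while 72 isotype cells are within every limit.

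In the isotype library the 2 types differed in the transcripts known for them, which describes the cells since the rule used genes of the same cells. Of 15 measured type 1 list genes outside the rule, 14 were at least 2-fold higher in type 1 cells, where 2.63% of all genes tested were. Irf8, the factor on which type 1 cells depend, was at 1795 CPM in type 1 and 176 CPM in type 2 cells, a ratio of 10.2 (8.45 to 12.4). Tlr3, a sensor of double-stranded RNA, gave 121 UMIs in type 1 cells and 0 in type 2 cells (at least 51.2-fold). Itgae, the integrin chain CD103, gave 43 and 0 UMIs (at least 18.2-fold). The lysosomal lipid hydrolase Naaa was 7.01 times and Wdfy4, a gene needed for cross-presentation, 4.82 times as high in type 1 cells. Batf3 differed less, at 159 and 108 CPM (1.47, 1.07 to 2.03). Also on the list, the endosomal GTPase Rab7b was at 236 and 5.7 CPM (41.6, 15.9 to 155) and the scavenger receptor Cd36 was 30.9 times higher in type 1 cells. Outside the list, the tetraspanin Cd81 was 9.98 times, the chemokine receptor Cxcr3 7.44 times and Havcr2, which encodes TIM-3, 4.59 times higher. In type 1-high cells the ratios to type 2 cells were larger, at 11.96 for Irf8 (9.90 to 14.6), 9.25 for Naaa, 6.24 for Wdfy4, 56.6 for Rab7b and 1.78 for Batf3 (1.28 to 2.47). The type 1-high cells held 120 of the 121 Tlr3 and 42 of the 43 Itgae UMIs. All these genes are on the list that set type 1-high cells apart. Their larger ratios and shares there follow from that division. Type 1 cells of the control heart thus showed the transcripts of the cross-presenting lineage.

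Of 11 measured type 2 list genes, 7 were at least 2-fold higher in type 2 cells, where 4.77% of all genes were. The lectin Clec10a was 9.94 times (6.56 to 15.8), Sirpa 6.69 times and Itgam, the CD11b chain, 6.0 times higher. Irf4 was 3.22 times and Zeb2, a factor of the myeloid lineage, 3.46 times higher. Type 1-high cells alone held no UMI of Clec10a or Sirpa, 3 of Itgam and 1 of Irf4. Klf4 was within 2-fold between the types, at 317 CPM in type 2, 404 CPM in all type 1 and 341 CPM in type 1-high cells. Cd7 and Cd209d were within 2-fold over all type 1 cells, but only 3 of 104 Cd7 and 0 of 46 Cd209d UMIs were in type 1-high cells, so both were higher in type 2 cells than in these (14.3-fold, 4.70 to 70.7, and at least 11.98-fold). Genes of NF-κB signalling stood out among the rest of what was listed: Tnfaip3, an inhibitor of NF-κB, was 7.22 times, Traf1, an adaptor of the tumour necrosis factor receptor family, 4.57 times, and Nfkbia 3.22 times higher in type 2 cells. In all, 6 of 19 measured genes of the CD40 and NF-κB list were higher in type 2 cells and none in type 1 cells. The suppressor of cytokine signalling Socs3 was 13.8 times and the IgG receptor chain Fcgr3 19.4 times higher. Against type 1-high cells type 2 cells had ratios of 5.23 for Tnfaip3, 3.94 for Traf1, 3.69 for Nfkbia, 13 for Socs3 and 14.1 for Fcgr3. Ifngr1, a chain of the interferon-γ receptor, had a ratio of type 1 to type 2 cells of 1.04 (0.866 to 1.25), and of 1.29 (1.07 to 1.55) for type 1-high cells. Cd40 itself gave 7 UMIs in type 1 and 15 in type 2 cells, and neither type held a UMI of Il12b or Cxcl9.

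Antibody tags gave the same division on the cell surface. In CPM of all tag UMIs, XCR1 was at 38296 in type 1 and 376 in type 2 cells of the isotype library, CD103 at 52469 and 303, and CD205, an endocytic receptor of type 1 cells, at 3632 and 110. Tags of type 2 cells went the other way. CD11b was at 6112 in type 1 and 50452 in type 2 cells, CD172a at 3287 and 19939, and the lectin CD301b at 718 and 6567. In type 1-high cells alone CD11b was at 2532 and CD172a at 1535, and 254 of the 690 CD11b UMIs of type 1 cells were in them. The CLEC9A tag was low, at 345 in type 1 and 202 in type 2 cells, where the highest control antibody reached 115 and 174.

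**Figure D3:**
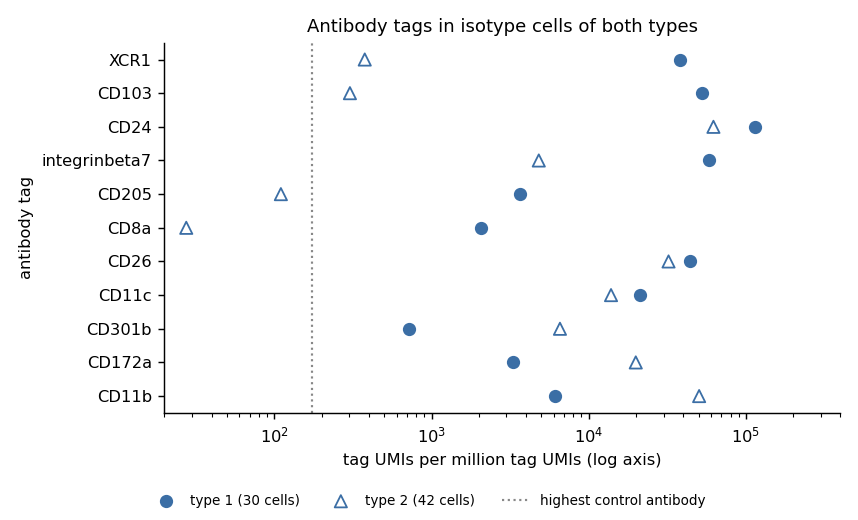
Antibody tag levels (CPM of all tag UMIs, log axis) in the 30 type 1 and 42 type 2 cells of the isotype library, with a dotted line at the highest control antibody. XCR1, CD103 and CD205 are higher in type 1 cells, and CD11b, CD172a and CD301b in type 2 cells.

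Genes of the interferon-γ response were higher in anti-CD40 type 1 cells. Over all type 1 cells of the rule the summed list went from 1035 to 5734 CPM (5.54, 5.00 to 6.14), and 11 of the 14 list genes with enough UMIs were at least 2-fold higher and none lower, where 3.98% of all genes tested were higher. In type 1-high cells it went from 1148 to 3067 CPM (2.67, 2.33 to 3.06), and 3 of the 6 measured list genes were higher and none lower, where 7.61% of all genes were higher. The list lay between 613 and 1666 CPM in the 22 isotype cells and between 933 and 4363 CPM in the 6 anti-CD40 cells, 4 of which were above every isotype cell. The 4 type 1-low anti-CD40 cells were at 5927 to 17935 CPM. They therefore held the larger part of the difference over all type 1 cells, and macrophages of the anti-CD40 library were at 14115 CPM.

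The stem cell antigen gene Ly6a, which interferons induce, gave no UMI in isotype type 1-high cells and 76 in the anti-CD40 cells, in 4 of 6 cells (at least 77.0-fold higher). Of the 76, 38 and 34 were in 2 cells, 3 and 1 in 2 others, and the deepest cell held none. Over all type 1 cells it gave 8 and 248 UMIs (88.7, 44.3 to 208), 172 of the latter in type 1-low cells. Its protein went the same way: the Sca-1 tag, which binds Ly6a and its close relative, was at 728 and 4833 CPM in type 1-high cells (6.64, 4.80 to 9.20). The isotype cells held 1 to 8 Sca-1 UMIs and the anti-CD40 cells 4 to 25, so the groups overlapped but all 6 were above the isotype median. The transcript thus rested mainly on 2 of the 6 type 1-high cells, whereas the tag did not.

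Zbp1, a sensor of Z-form nucleic acids, gave 1 UMI in 22 isotype and 11 UMIs in 6 anti-CD40 type 1-high cells, each of the 6 holding at least 1. The immunity-related GTPase Ifi47 gave 1 and 12 UMIs, and Igtp, another of this family whose promoter is printed above, 4 and 10 (7.60, 2.19 to 33.2). Serpina3g, a protease inhibitor, gave 0 and 10 UMIs (at least 10.1-fold higher). These genes were higher in type 1-high cells at counts that stay small.

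Other genes of this response lay mostly in type 1-low cells. Cxcl9, a chemokine that draws CXCR3+ T cells, gave 0 UMIs in isotype type 1 cells and 82 in anti-CD40 type 1 cells (at least 78.2-fold higher), but 67 of the 82 were in 1 type 1-low cell and only 6 in type 1-high cells. The guanylate-binding protein Gbp2 gave 0 and 52 UMIs (at least 49.6-fold), of which 48 were in type 1-low cells. The GTPase Iigp1 gave 0 and 43 UMIs (at least 41.0-fold), of which 38 were in type 1-low cells. The complement gene C3 gave 0 and 27 UMIs, 22 of them in 1 cell, and Isg15, an interferon-induced ubiquitin-like modifier, 2 and 22, 16 of them in 1 cell. Cxcl10, a relative of Cxcl9, gave 0 and 4 UMIs. Other cells of the anti-CD40 library were high in these genes: Cxcl9 was at 1441 CPM in its macrophages and 391 CPM in its neutrophils, where 34.9% of neutrophils held a Cxcl9 UMI, and Gbp2 was at 668 and 3189 CPM. The part of these cells in the type 1 counts was not tested. The macrophage list in anti-CD40 type 1 cells was at 4.97% of the macrophages' level and the interferon-γ list at 40.6%, and in type 1-high cells at 3.72% and 21.7%. As the limit on C1q UMIs selects members low in macrophage genes, these percentages do not measure that part.

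**Figure D4:**
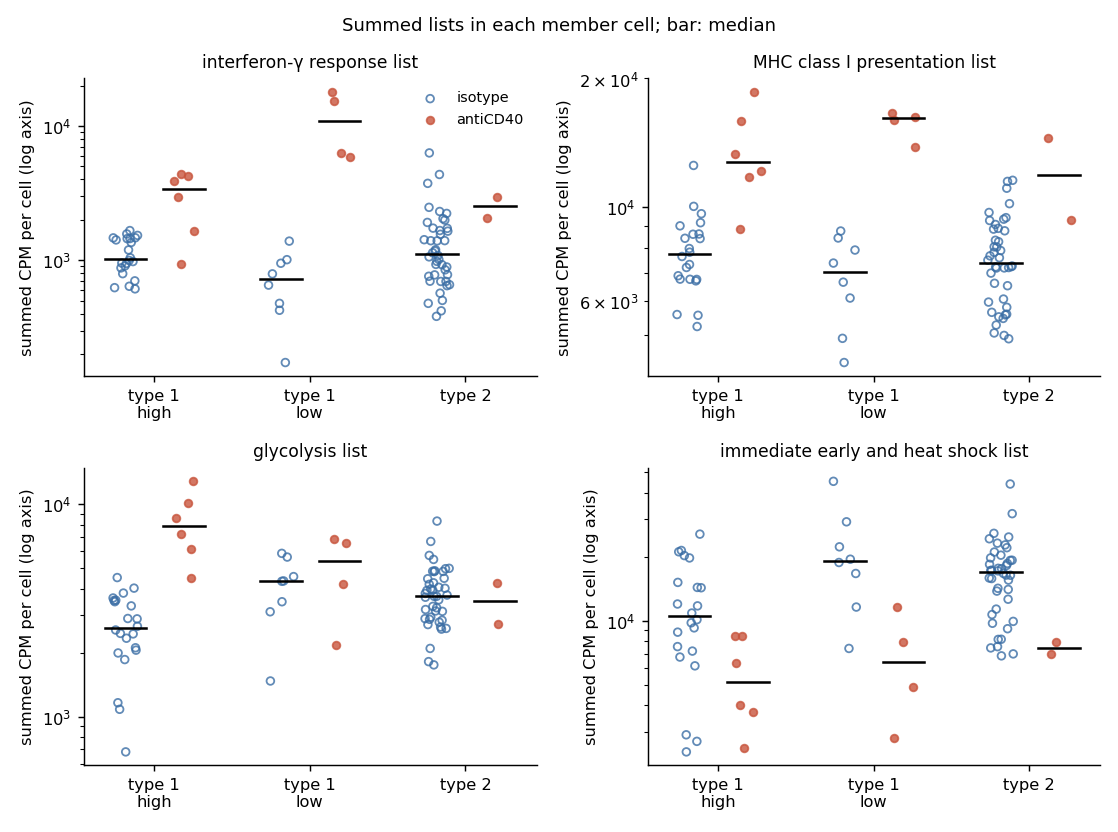
Summed level of 4 gene lists (CPM, log axis) in each type 1-high, type 1-low and type 2 cell of both libraries, with a bar at each median. Among type 1-high cells, 4 of 6 anti-CD40 cells are above every isotype cell for the interferon-γ list and 5 of 6 for the glycolysis list.

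The MHC class I pathway was higher in anti-CD40 type 1 cells. Of 21 measured genes, 9 were at least 2-fold higher over all type 1 cells and none lower, where 3.98% of all genes were higher. The summed list was at 7951 and 13797 CPM in type 1-high cells (1.74, 1.64 to 1.84), where 7 of 19 were higher and none lower against 7.61% of all genes higher, and each of the 6 anti-CD40 cells was above the isotype median. Psmb8, an immunoproteasome subunit that cuts peptides for class I, was at 742 and 1817 CPM in type 1-high cells (2.45, 2.06 to 2.91), and Psmb9, its partner, at 413 and 886 CPM (2.14, 1.68 to 2.73). Tap1, which carries peptides into the endoplasmic reticulum, was at 189 and 424 CPM (2.24, 1.56 to 3.21), while Tapbp, which loads them, was at 242 and 235 CPM (0.972, 0.627 to 1.47). Of the class I chains, H2-K1 was at 680 and 1507 CPM (2.22, 1.84 to 2.67), H2-D1 at 1277 and 1840 CPM (1.44, 1.23 to 1.68) and the non-classical H2-Q7 at 57.3 and 371 CPM (6.48, 3.87 to 11.1). The H2-Q genes are near-identical copies, so their split of reads is uncertain. B2m, the shared light chain, had a ratio of 1.47 (1.23 to 1.75). Peptide production and transport were thus higher together with the chains that show the peptides.

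Class II genes were close between the libraries in type 1-high cells, and some lineage genes were lower. The class II list was at 51834 and 50182 CPM in type 1-high cells (0.968, 0.942 to 0.995), with none of 12 measured genes 2-fold apart. H2-Aa had a ratio of 0.900 (0.839 to 0.966) there and 1.17 (1.1 to 1.24) over all type 1 cells. Irf8 was at 2107 and 2590 CPM in type 1-high cells (1.23, 1.08 to 1.4), Batf3 had a ratio of 0.908 (0.544 to 1.46), Id2, a factor needed for this lineage, 0.95 (0.776 to 1.16), and Itgae 1.01 (0.511 to 1.89). Irf8, Batf3 and Itgae are on the list that set type 1-high cells apart in both libraries. Like levels of these genes there follow in part from that division. The 4 anti-CD40 type 1-low cells held 0 to 10 Irf8 UMIs, and the 6 type 1-high cells 1 to 137. Of the genes shared by conventional dendritic cells 4 of 9 measured, and of the list of dendritic cell transcription factors 4 of 11, were at least 2-fold lower and none higher, where 9.76% of all genes were lower. Zbtb46, a factor of conventional dendritic cells, gave 28 and 3 UMIs (0.326, 0.0634 to 1.05). The type 2 genes Irf4 and Sirpa gave 11 and 16 UMIs over all isotype type 1 cells and 0 and 3 over all anti-CD40 type 1 cells, with 1 of all these UMIs in type 1-high cells. The XCR1 tag, scaled to all tag UMIs, had a ratio of 1.08 (0.996 to 1.16) in type 1-high cells and 0.735 over all type 1 cells. In XCR1 UMIs per type 1-high cell the medians were 169.5 and 127, and 5 of the 6 anti-CD40 cells were below the isotype median.

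Metabolic genes were higher as well. The glycolysis list was at 2956 and 7883 CPM in type 1-high cells (2.67, 2.45 to 2.90), with 5 of the 6 anti-CD40 cells above every isotype cell, and 8 of 11 measured genes were higher and 1 lower, where 7.61% of all genes were higher and 9.76% lower. Over all type 1 cells the list's ratio was 2.11 (1.96 to 2.26), with 6 of 11 genes higher and 1 lower, where 3.98% of all genes were higher and 9.02% lower. Gapdh was at 966 and 3029 CPM in type 1-high cells (3.13, 2.72 to 3.61), Tpi1 at 102 and 492 CPM (4.82, 3.21 to 7.31), Pkm at 197 and 803 CPM (4.08, 3.02 to 5.53) and Ldha, which makes lactate, at 384 and 1045 CPM (2.72, 2.15 to 3.45). Enzymes from the middle to the end of glycolysis were thus higher. The redox protein gene Txn1 was at 299 and 2120 CPM (7.10, 5.71 to 8.86), the pyrophosphatase Ppa1 at 37.4 and 235 CPM (6.28, 3.29 to 12.5) and the aminopeptidase Lap3 at 39.8 and 242 CPM (6.08, 3.24 to 11.9). The oxidative phosphorylation list had a smaller ratio of 1.5 (1.4 to 1.6).

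CD40, its target genes and co-stimulation gave little difference in type 1-high cells. Cd40 gave 3 isotype UMIs and 0 anti-CD40 UMIs, Cd80 1 and 0, and Cd274, which encodes PD-L1, 0 and 1. Cd86, a ligand that co-stimulates T cells, was at 115 and 75.7 CPM (0.661, 0.297 to 1.33). Il12a and Il12b gave no UMI in type 1-high cells of either library, and Ccl17 and Ccl22, chemokines of mature dendritic cells, gave 1 UMI in all. At 132060 UMIs in the anti-CD40 type 1-high cells a difference in such low genes was not detectable. Among 7 measured genes of the CD40 and NF-κB list, 1 was lower and none higher, where 9.76% of all genes were lower, and the summed list was at 1143 and 772 CPM (0.676, 0.540 to 0.839). Over all type 1 cells the ratio of that list was 1.28 (1.11 to 1.48), with type 1-low anti-CD40 cells at 3031 CPM.

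The surface tags showed the same split between the cells. The CD40 tag was at 1585 and 1855 CPM in type 1-high cells (1.17, 0.779 to 1.71), CD86 at 5682 and 6463 (1.14, 0.923 to 1.39), and PD-L1 gave 30 and 11 UMIs (2.07, 0.935 to 4.24). Over all type 1 cells the ratios were 4.29 for CD40, 3.09 for CD86 and 20.7 for PD-L1. Of 198 PD-L1 UMIs in anti-CD40 type 1 cells 187, of 196 CD40 UMIs 163 and of 481 CD86 UMIs 366 (281 in 1 cell) were in the 4 type 1-low cells, whose PD-L1 level of 16517 CPM stood beside 10086 in macrophages of that library. CD54, an adhesion molecule for T cell contact, was at 37763 and 66202 in type 1-high cells (1.75, 1.64 to 1.87) and had a ratio of 2.34 over all type 1 cells. In CD54 UMIs per type 1-high cell the medians were closer, at 162 and 209.5. None of the 6 anti-CD40 cells was above every isotype cell, and 2 were below the isotype median. CD26, a peptidase of type 1 cells, was lower, at 45470 and 20794 (0.457, 0.410 to 0.509), as was its transcript Dpp4 with 77 and 2 UMIs. Of 9 control antibodies, the highest reached 172 CPM in anti-CD40 type 1 cells. Of 115 tags measured in all type 1 cells, 13.9% were at least 2-fold higher and 22.6% at least 2-fold lower.

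**Figure D5:**
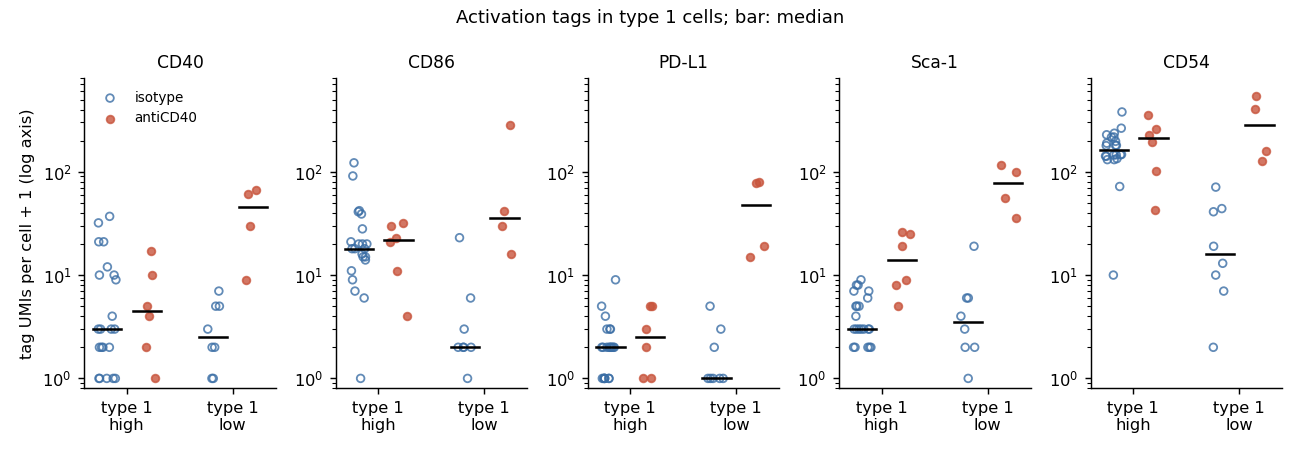
Tag UMIs + 1 (log axis) of CD40, CD86, PD-L1, Sca-1 and CD54 in each type 1-high and type 1-low cell of both libraries, with a bar at each median. The 4 anti-CD40 type 1-low cells hold 14 to 79 PD-L1 UMIs and 8 to 66 CD40 UMIs, while the 6 anti-CD40 type 1-high cells hold 0 to 4 and 0 to 16.

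The interferon-γ receptor was lower in anti-CD40 type 1 cells. Ifngr1, the ligand-binding chain, was at 493 and 182 CPM in type 1-high cells (0.369, 0.231 to 0.565) and at 399 and 145 CPM over all type 1 cells (0.363, 0.235 to 0.539). Ifngr2, the signalling partner chain, gave 45 and 1 UMIs in type 1-high cells and had a ratio of 0.409 (0.168 to 0.862) over all type 1 cells. In the 2 anti-CD40 type 2 cells Ifngr1 gave 14 UMIs, with a ratio of 1.34 (0.720 to 2.28). Both chains were thus lower in type 1 cells, where the response genes were higher.

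Immediate-early and heat shock genes were lower in anti-CD40 cells. This list, which tissue digestion can also induce, was at 13151 and 6550 CPM in type 1-high cells (0.498, 0.463 to 0.535), and 18 of 20 measured genes were at least 2-fold lower, where 9.76% of all genes were. Over all type 1 cells 19 of 22 were lower, where 9.02% of all genes were. The transcription factor gene Fosb was at 478 and 45.4 CPM in type 1-high cells (0.0950, 0.0344 to 0.211), Jun at 1001 and 167 CPM (0.166, 0.103 to 0.255) and Klf2 at 742 and 114 CPM (0.153, 0.0846 to 0.257). Of the chaperones, Hspa1a was at 929 and 167 CPM (0.179, 0.111 to 0.276), while the constitutive Hspa8 was at 2398 and 3438 CPM (1.43, 1.28 to 1.6). Hearts of both groups were digested for 20 min at 37 °C per the labels, and the part of handling in this list was not tested. The inflammatory chemokine Ccl4 gave 84 UMIs in isotype type 1-high cells and 0 in anti-CD40 cells (at least 9.21-fold lower). The 84 were in 7 of 22 cells, 33 of them in 1 cell, so most isotype cells held none as well. Over all type 1 cells Ccl4 gave 166 and 0 UMIs (at least 19.3-fold lower), the 166 in 13 of 30 isotype cells. Its relative Ccl3 gave 83 and 0 UMIs over all type 1 cells (at least 9.67-fold lower) but only 5 of the 83 in type 1-high cells. The clock and stress repressor Bhlhe40 gave 51 and 0 UMIs (at least 5.94-fold lower) and Selenop, a selenium carrier, 49 and 0 (at least 5.71-fold lower). In type 1-high cells they gave 24 and 0 (at least 2.63-fold lower) and 23 and 0 UMIs (at least 2.52-fold lower). Cd7 gave 104 and 0 UMIs (at least 12.1-fold lower), only 3 of them in type 1-high cells.

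Cell cycle genes of type 1 cells rested on few cells. Mki67, a marker of dividing cells, gave 50 and 39 UMIs in all type 1 cells (2.23, 1.43 to 3.46). Of the 50, 35 were in 1 isotype cell, which is type 1-low. Of the 39, 29 were in the deepest anti-CD40 cell, which is type 1-high and held 43293 UMIs. That cell also held all 36 UMIs of Top2a in anti-CD40 type 1-high cells. The cell cycle list had a ratio of 3.0 in type 1-high cells and 1.25 (1.06 to 1.48) without this cell. At least 2 UMIs of Mki67 were held by 5 isotype and 3 anti-CD40 type 1 cells, and by 6 and 0 type 2 cells.

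Over all 72 and 12 members, 149 of 5646 measured genes (2.64%) were at least 2-fold higher and 596 (10.6%) at least 2-fold lower in the anti-CD40 library. These counts compare groups whose share of type 1 cells differs, and each anti-CD40 sum rests on 12 cells. By log2 ratio, the highest genes were led by Ly6a (61.2, 40.2 to 97.3), Cxcl9 (at least 159-fold), Gbp2 (148, 39.0 to 1250), Iigp1 (at least 81.6-fold) and Txn1 (7.77). Next came Zbp1 (10.8), Lap3 (7.12), the phospholipase Plaat3 (7.16), Ifi47 (7.32) and Ppa1 (6.83). The last were H2-Q7 (5.77), the glutaredoxin Glrx (4.54), the secreted immune regulator Fgl2 (3.97) and H2-Q6 (4.74). In type 1-high cells Glrx had a ratio of 1.09 (0.547 to 2.06). The 10 lowest were Ccl4 (at least 17.1-fold), the stress factor Atf3 (63.4-fold), Ier3 (at least 12.9-fold), Ccl3 (at least 10.5-fold), the prostaglandin-degrading enzyme Hpgd (at least 9.78-fold), Bhlhe40 (at least 9.13-fold), Cd209d (at least 6.38-fold), Clec10a (14.4-fold), Gadd45b (17.3-fold) and Rhob (16.3-fold). Clec10a and Cd209d were in type 2 and type 1-low cells of the isotype library and gave 0 UMIs in its type 1-high cells.

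Only 2 type 2 cells, with 27344 UMIs, were left in the anti-CD40 library, so their values describe these cells. Of 3510 genes, 335 (9.54%) were at least 2-fold higher and 771 (22%) lower, but edgeR's scaling factors differed by 0.56 on the log2 scale and gave 74 higher and 1183 lower, so the ratios below are high relative to that scaling. The interferon-induced Ifi27l2a was at 513 and 2085 CPM (4.07, 3.02 to 5.39), Ifitm3, a membrane protein that blocks virus entry, at 1822 and 5120 CPM (2.81, 2.34 to 3.35) and Ifitm2 at 805 and 2158 CPM (2.68). The nucleolar protein Ncl had a ratio of 3.34, Ly6e 2.54, Myl12a 2.44, the proteasome subunit Psma7 2.43 and Tspo 2.18. Lower were Atf3 with 287 and 0 UMIs (at least 3.71-fold), Socs3 with 228 and 0 (at least 2.95-fold), the cell division gene Stmn1 (at least 2.55-fold), Dleu2 (at least 2.43-fold) and Gadd45b (at least 2.42-fold). The interferon-γ list was at 1321 and 2450 CPM (1.86, 1.43 to 2.38), and their Sca-1 tag at 2192 and 13418 CPM (6.12, 4.46 to 8.27). A list of type I interferon genes was at 1226 and 4133 CPM, a ratio of 3.37. The 2 anti-CD40 cells were at 1505 and 7810 CPM, so 1 of them lay within the isotype range of 180 to 5436 CPM. Of the list's 5 measured genes 3 were higher and 1 lower, where 9.54% and 22% of all genes were.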

How the data were processed

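The files deposited by the authors hold UMI counts, not normalized, of 32285 genes and 198 antibody tags (9 controls) in each barcode. Libraries were made with the 10x Genomics Chromium 5′ kit, per the labels' protocols. Cell Ranger 6.0.1 wrote the matrices per the file headers, whereas the submitters' processing notes list Cell Ranger 3, Seurat 3 and the builds mm10 and GRCh38, with no roles. Of 4908 isotype and 7087 anti-CD40 barcodes, 2558 and 4278 passed the filter of 200 genes or more and less than 10% UMIs from mitochondrial genes (medians 5446 and 8284.5 UMIs). The barcode sequences of 13 cells occurred in both libraries. Doublets were not called.

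Members held at least 3 UMIs of the marker genes, at most 9 of C1qa, C1qb and C1qc, 2 of Ccr7, Fscn1 and Cacnb3, 1 of Cd3d, Cd3e and Cd3g, 4 of Cd79a, Cd79b and Ms4a1, and 2 of Csf3r and Retnlg. The members and gene lists were chosen with earlier results of these data known, and the 4000 CPM division of type 1 cells after the cells were seen. UMIs were summed per library, and genes with at least 30 UMIs over both libraries compared; at least 2-fold on log2 ratios with a prior of 10 CPM was counted as higher or lower. A gene at 0 UMIs was given 3 counts for its bound. Intervals (scipy 1.17.1) are Clopper-Pearson for shares and conditional binomial for ratios. Named were the 15 highest and 10 lowest genes over all members, and the 8 highest and 5 lowest of each type, beside a fixed set of receptor, cytokine and lineage genes; genes of the rule, markers of other cell types and unnamed models were passed over. A value that this rule takes is not reported here. The calculations were tested on simulated data. Alternatives covered the filters, limits, prior, thinning to 2000 UMIs, and scaling with edgeR 4.0.16 and DESeq2 1.42.0 factors.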

Additional observations from a re-analysis of the deposited data

Results flagged for a closer look

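For 3 of the named genes the type 1 and type 2 cells stood at least 2-fold apart between the libraries in opposite directions, on the log2 ratio of anti-CD40 to isotype with a prior of 10 CPM. Cd7, an immunoglobulin superfamily receptor, was at -4.30 in type 1 cells and 2.52 in type 2 cells. Ifitm2 was at -1.47 and 1.41. Mki67 was at 1.08 and -4.10, and its type 1 value rests mainly on 1 cell in each library. The difference between the types was not tested, and the type 2 values rest on 2 anti-CD40 cells.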

How the results depend on the processing

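The share of conventional dendritic cells stayed lower in the anti-CD40 library under every alternative run: the difference of -2.53 percentage points became -4.07 with minimums of 500 genes per cell and a limit of 5% on mitochondrial UMIs, and -1.46 after thinning to 2000 UMIs. The type 1 share among members, 41.7 points higher, was 86.7 points higher after thinning and 19.4 with type 1-high cells alone.

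Counts of genes at least 2-fold apart depended on the settings. Over all members, 149 genes were higher and 596 lower. They became 341 and 1532 with at most 2 C1q UMIs (3 anti-CD40 members left), 20 and 73 after thinning (2 left), 302 and 243 with no C1q limit, 51 and 133 with a prior of 50 CPM, and 285 and 957 with no minimum of UMIs, and a prior of 1 CPM gave 259 higher. In type 1 cells 136 higher genes became 1 after thinning, 448 with no C1q limit, 46 with a prior of 50 CPM and 462 with no minimum. In type 2 cells 335 became 74 and 83 with edgeR and DESeq2 factors, 137 with a prior of 50 CPM and 1371 with no minimum. Thinning left no anti-CD40 type 2 cell. Thinning both left fewer members and cut each cell to 2000 UMIs, and why the counts changed was not tested.

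Of 1004 values of named genes at least 2-fold apart, 984 kept their direction. Directions turned on the log2 scale as follows. With at most 2 C1q UMIs, over all members Gbp2 was at -0.14, H2-Q6 at -2.18, Ifngr1 at 0.52 and Cd274 and Cxcl10 at -0.26, and in type 1 cells Isg15 was at -0.56 and Mki67 at -2.18. After thinning, over all members Ly6a was at -2.12, Zbp1 and H2-Q7 at -2.94, Ifi47 at -3.22, and Ppa1, Cd274 and Cxcl10 at -1.42, and in type 1 cells Selenop was at 4.70 and Mki67 at -3.75. With no C1q limit, Sirpa was at 0.20 over all members, Selenop at 0.97 in type 1 cells and Stmn1 at 0.47 in type 2 cells. The type 2 list in type 1 cells was at 0.040 without cells holding Cd209a, and Mki67 at -0.39 without the deepest anti-CD40 cell. With type 1-high cells alone none of 26 values at least 2-fold apart turned and 20 stayed at least 2-fold apart, but 10 of 25 smaller ones turned, among them the CD40 and NF-κB list from 0.36 to -0.56, the class II list from 0.25 to -0.05 and H2-Aa from 0.22 to -0.15. No paired analysis was possible because each group is 1 library and no test was run.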
